A study of Homo sapiens with 9 samples.

Results

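The 10 genes described here are transcription factors of the neural crest and of embryonic muscle progenitors: the paired-box genes PAX3 and PAX7, the AP-2 genes TFAP2A and TFAP2B, the forkhead gene FOXD3, and the homeobox genes MSX1, MSX2, DLX5, DLX6 and MEIS1. They were taken by gene symbol from a count table and an FPKM table of 58381 genes, and all 10 were found. Of those genes, 17235 were read often enough to be tested, and all 10 members were among them. RNA was sequenced from TC-32, an established human Ewing sarcoma cell line whose driver is the fusion protein EWSR1::FLI1. All 9 libraries therefore come from cells that carry the fusion, and all 9 carry the lentiviral pLOC vector. The 3 RFP libraries hold the vector with a red fluorescent protein and serve as the control. The other libraries hold a human ETS1 cDNA in that vector, 3 from cells labelled ETS1-Low and 3 from cells labelled ETS1-High. ETS1 is a transcription factor of the ETS family, to which FLI1 also belongs, and the series asks how gene expression responds to ETS1 while the fusion is present. The submitters describe the ETS1 cells as single-cell clones chosen by their ETS1 level, after puromycin selection and sorting of transduced cells. How many clones stand behind a group is not given, so an effect of ETS1 and a property of the clone cannot be told apart. Nothing says that the 3 libraries of a group come from separate clones or cultures, and the p-values measure only the spread between these libraries.

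Each library held between 39484704 and 46654734 expected counts. ETS1 itself followed the labels, with 2.00 ± 0.174 CPM (counts scaled to the TMM-normalised library total; mean ± SD, n = 3) in RFP, 10.6 ± 0.298 in ETS1-Low and 19.1 ± 0.806 in ETS1-High. A single row holds ETS1, so reads from the introduced cDNA and from the cells' own gene are not separated. The cell line's label was checked against 10 Ewing sarcoma markers, all of which were detected in every group, with a summed level of 2600 to 2710 CPM in RFP, 3930 to 3990 in ETS1-Low and 4020 to 4030 in ETS1-High. All 10 were called higher in both ETS1 groups than in RFP in the count fit (8 of 10 on the FPKM scale), beside 37.0% of all tested genes called higher in ETS1-High and 37.9% in ETS1-Low. Among them was CD99, the surface protein used to diagnose the tumour, at 166 ± 3.68, 243 ± 1.3 and 295 ± 7.7 CPM. The libraries are bulk samples, in which fewer cells of a type and less RNA per cell cannot be told apart.

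The neural crest is an embryonic cell population that leaves the edge of the neural tube and gives rise to facial bone and cartilage, peripheral neurons, glia and pigment cells. At its border, signals switch on MSX, DLX, PAX and AP-2 factors, and these act upstream of FOXD3, which specifies premigratory crest. DLX5, DLX6 and the MSX factors later pattern the jaw and drive bone formation. PAX3 and PAX7 also mark the progenitors of skeletal muscle, in which they lie upstream of MYOD1, MYF5 and MYOG, and MEIS1 is a DNA-binding partner of HOX and PBX proteins. Neural crest and mesenchymal progenitors have both been proposed as the origin of Ewing sarcoma.

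ETS family proteins bind DNA around the core letters GGAA. For members with a listed promoter, the 250 bases before the annotated start are shown for those that fell and rose the most in ETS1-High. The sequences are RefSeq promoters on GRCh38.p14, written 5′ to 3′ on the strand of the gene, with GGAA and its reverse complement TTCC in capitals. DLX6 and FOXD3 had lower levels in both ETS1 groups, and TFAP2A (its outer start) and PAX7 had higher levels.
DLX6, chr7:97005303-97005552, plus strand: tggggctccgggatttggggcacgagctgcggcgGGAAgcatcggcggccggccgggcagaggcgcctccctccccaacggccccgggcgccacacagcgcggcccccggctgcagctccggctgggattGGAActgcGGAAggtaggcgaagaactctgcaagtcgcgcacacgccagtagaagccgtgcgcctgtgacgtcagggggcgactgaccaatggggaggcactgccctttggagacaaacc
FOXD3, chr1:63322317-63322566, plus strand: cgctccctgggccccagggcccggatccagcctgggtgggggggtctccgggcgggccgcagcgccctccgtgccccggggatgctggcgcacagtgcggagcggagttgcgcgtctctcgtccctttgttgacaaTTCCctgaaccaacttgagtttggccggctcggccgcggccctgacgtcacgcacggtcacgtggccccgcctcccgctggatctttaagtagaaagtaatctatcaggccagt
TFAP2A, chr6:10419660-10419909, minus strand: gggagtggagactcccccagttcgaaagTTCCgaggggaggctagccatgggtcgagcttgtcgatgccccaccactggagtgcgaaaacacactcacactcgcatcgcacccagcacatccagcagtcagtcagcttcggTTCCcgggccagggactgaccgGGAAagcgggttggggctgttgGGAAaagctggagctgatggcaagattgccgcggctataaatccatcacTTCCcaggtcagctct
PAX7, chr1:18630596-18630845, plus strand: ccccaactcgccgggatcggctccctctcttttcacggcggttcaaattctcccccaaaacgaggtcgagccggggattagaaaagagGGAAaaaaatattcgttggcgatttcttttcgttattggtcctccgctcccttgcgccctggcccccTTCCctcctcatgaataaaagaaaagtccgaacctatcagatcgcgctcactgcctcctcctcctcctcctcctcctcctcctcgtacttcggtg
On both strands together, this window held 3 matches to GGAA for DLX6, 1 for FOXD3, 5 for TFAP2A and 2 for PAX7. GGAA is a common run of letters: 92.7% of the 35116 promoters in the RefSeq table held it in a window of this length, with a median of 3 matches. A promoter was listed for 9 of the 10 members, DLX5 being the one without. TFAP2A had a second listed start further in, not shown, whose window held 6 matches. MSX2 had 4 matches, PAX3 and MSX1 had 2 each, and MEIS1 and TFAP2B had 1 each. The longer run CGGAAG, which contains GGAA, was present in 16.5% of all promoters and once each in those of DLX6 and MEIS1. Extending the window by 50 bases past the start, the doubled core GGAAGGAA occurred in 3.67% of all promoters and in none of the 9 listed members. These counts describe letters and not bound sites, and the members with more matches were not tested against those with fewer.

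All 10 genes differed between ETS1-High and RFP in edgeR's quasi-likelihood test with Benjamini-Hochberg adjustment over all genes tested, at the threshold of 0.05 used for every call below. The call is common in these data, since 74.2% of all tested genes passed it in that comparison, and 74.1% in ETS1-Low against RFP, where all 10 members were called too. Between ETS1-High and ETS1-Low, 59.2% of tested genes and 9 of the 10 members were called, PAX7 being the exception. In ETS1-High against RFP, 5 members rose (PAX3, PAX7, TFAP2A, TFAP2B and MSX2) and 5 fell (FOXD3, MSX1, DLX5, DLX6 and MEIS1), beside 37.0% and 37.2% of all tested genes. In ETS1-Low against RFP, 4 rose and 6 fell, beside 37.9% and 36.2%, MSX2 being the gene whose direction was the opposite. From ETS1-Low to ETS1-High, 4 rose and 5 fell, beside 29.9% and 29.3%. A call in all 3 comparisons was made for 9 members and for 38.9% of all genes. In CPM, the libraries of the groups did not overlap for any of the 10 members in any of the 3 comparisons. This also held for 75.5%, 76.0% and 63.2% of all tested genes in ETS1-High against RFP, ETS1-Low against RFP and ETS1-High against ETS1-Low.

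**Figure D1:**
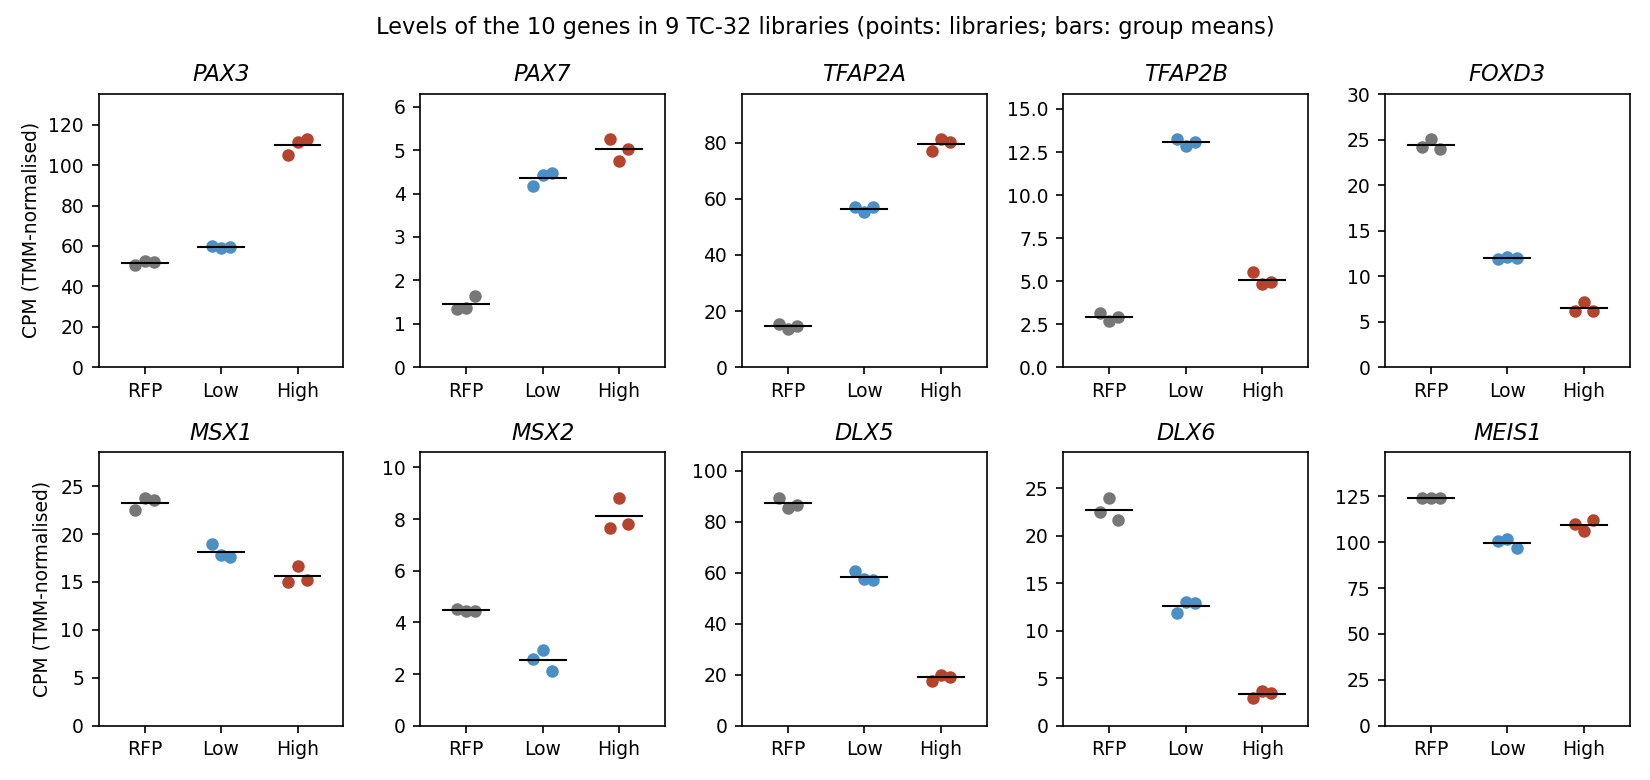
Level of each of the 10 genes in each library, in CPM with TMM-normalised library sizes on a linear axis from 0; points are libraries and bars are means of 3 libraries. DLX5, DLX6, FOXD3 and MSX1 step down from RFP to ETS1-Low to ETS1-High, PAX3 and TFAP2A step up, TFAP2B is highest in ETS1-Low, MSX2 is lowest in ETS1-Low and MEIS1 moves little.

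The sizes of the changes set the members apart from one another. A change of at least 2-fold was called in ETS1-High against RFP for 6 of them, beside 21.0% of all tested genes, and these were TFAP2A, PAX7 and PAX3 upward (9.64% of all genes) and DLX6, DLX5 and FOXD3 downward (11.4%). In ETS1-Low against RFP it was called for 4 members, beside 20.6% of all genes: TFAP2B, TFAP2A and PAX7 upward (8.47% of all genes) and FOXD3 downward (12.2%). In ETS1-High against ETS1-Low it was called for 4, beside 9.74%: MSX2 upward (6.05% of all genes) and DLX6, DLX5 and TFAP2B downward (3.69%). The median absolute log2 fold change of the 10 members was 1.44, 0.83 and 0.89 in these comparisons in that order, against 0.40, 0.41 and 0.25 over all tested genes.

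The RFP libraries are the control of both ETS1 groups, so the changes against RFP are given side by side and not correlated. Graded members, called from RFP to ETS1-Low and again in the same direction from ETS1-Low to ETS1-High, numbered 6 of 10, beside 16.4% of all tested genes. PAX3 and TFAP2A rose in both steps, as 9.48% of all genes did, and FOXD3, MSX1, DLX5 and DLX6 fell in both, as 6.88% did. The first step of PAX3, 0.21 on the log2 scale, was not called on the FPKM scale. TFAP2B, MSX2 and MEIS1 moved one way in the first step and the other way in the second.

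**Figure D2:**
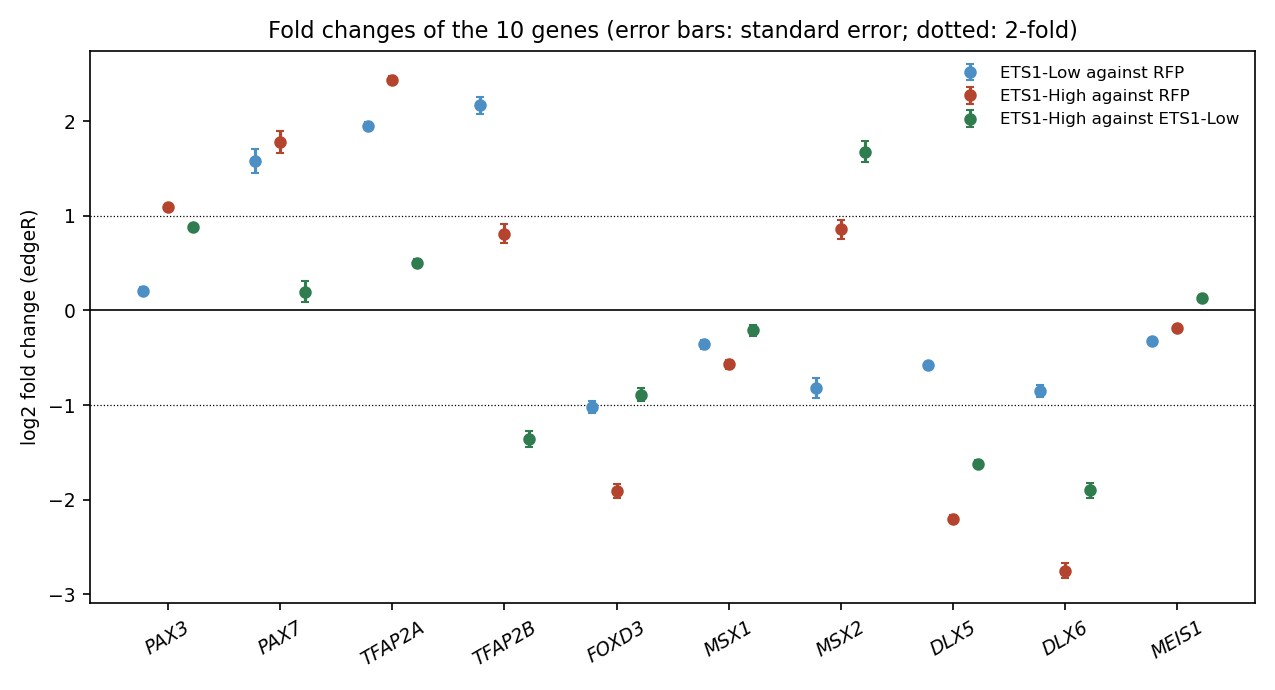
Fitted log2 fold change of each of the 10 genes in ETS1-Low against RFP (blue), ETS1-High against RFP (red) and ETS1-High against ETS1-Low (green), with standard errors; dotted lines mark 2-fold. DLX6 at -2.75 and TFAP2A at 2.44 are the extremes of ETS1-High against RFP, and MSX2 is the gene with ETS1-Low and ETS1-High on opposite sides of 0.

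DLX5 and DLX6, distal-less homeobox factors that specify the lower jaw and act in bone-forming cells, fell the furthest of the 10 genes in ETS1-High. DLX5 stood at 89.5, 85.6 and 86.7 CPM in the RFP libraries, at 60.7, 57.5 and 57.2 in ETS1-Low and at 17.6, 20.0 and 19.2 in ETS1-High. The 3 groups formed separate steps, and the drop from ETS1-Low to ETS1-High was larger than that from RFP to ETS1-Low. Its log2 fold change was -2.20 ± 0.04 (SE; edgeR adjusted p = 2.57e-42) in ETS1-High against RFP, a level 4.6-fold lower, and -0.58 ± 0.04 (edgeR adjusted p = 4.4e-20) in ETS1-Low.

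DLX6 was at 22.6, 24.0 and 21.7 CPM in RFP, 11.9, 13.0 and 12.9 in ETS1-Low and 2.92, 3.67 and 3.49 in ETS1-High. It showed the same steps as its partner, with the ETS1-High libraries far below all others. Its log2 fold change was -2.75 ± 0.08 in ETS1-High against RFP (edgeR adjusted p = 1.4e-34), which is 6.73-fold lower, and -0.85 ± 0.06 in ETS1-Low (edgeR adjusted p = 5.78e-17). The deposited FPKM values, which are scaled to transcript length and can be compared between genes, put DLX5 above DLX6 by 5.90 ± 0.531 times in RFP, 7.10 ± 0.449 times in ETS1-Low and 9.25 ± 0.592 times in ETS1-High (SD, n = 3). The ratios of the 3 groups did not overlap. Each pair of groups gave p = 0.1 in a two-sided exact permutation test of the log2 ratio, the smallest value that 3 libraries against 3 allow.

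The pair lies on chromosome 7 in opposite orientations, DLX6 at chr7:97005553-97011040 on the plus strand and DLX5 at chr7:97020396-97024950 on the minus strand (GRCh38, GENCODE v44). A gap of 9355 bases separates them. DLX6-AS1, a long noncoding RNA on the opposite strand that overlaps exons of DLX6, fell with them, from 8.88 ± 0.812 CPM in RFP to 3.46 ± 0.221 in ETS1-Low and 0.954 ± 0.0817 in ETS1-High. Its log2 fold changes against RFP were -1.36 in ETS1-Low and -3.21 in ETS1-High. Whether reads were counted by strand is not stated, so reads of DLX6 and of DLX6-AS1 in the shared exons cannot be told apart.

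Measured from the edges of the pair, 19 other tested genes lay within 2 Mb, DLX6-AS1 among them. Their median log2 fold change against RFP was -0.28 for ETS1-High and -0.24 for ETS1-Low. In ETS1-High 5 were called higher and 9 lower, beside 37.0% and 37.2% of all tested genes. In ETS1-Low 4 were called higher and 10 lower, beside 37.9% and 36.2%. Measured between start sites, which leaves out PPP1R9A, the neighbours numbered 18, with medians of -0.28 and -0.20. The nearest on either side, SDHAF3 at 93 kb and SEM1 at 296 kb, changed by -0.26 and -0.56 on the log2 scale in ETS1-High. Further out, DYNC1I1 fell by 1.32 and ASNS, which encodes asparagine synthetase, fell by 1.81 on that scale. PPP1R9A, a neuronal actin-binding protein gene 1709 kb away, fell the most of the 19, with a log2 fold change of -5.95 in ETS1-Low and -5.19 in ETS1-High.

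**Figure D3:**
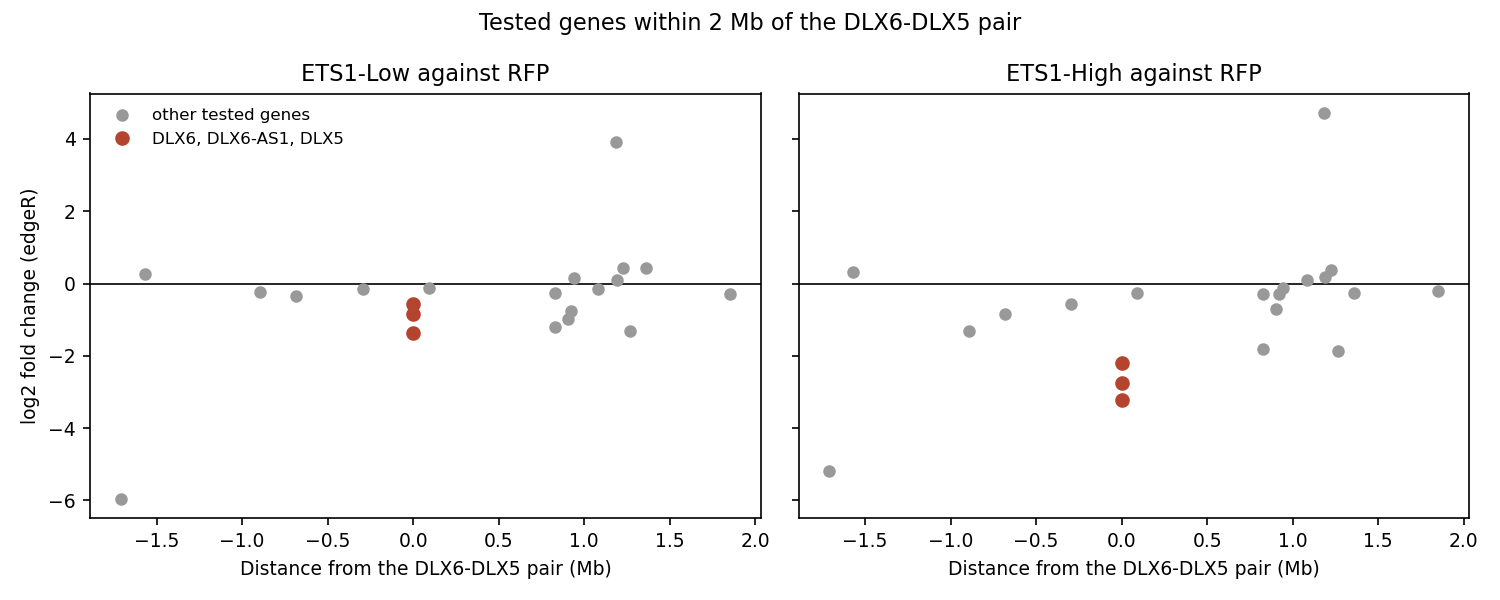
Fitted log2 fold change against RFP of the tested genes within 2 Mb of the edges of the DLX6-DLX5 pair, by distance from the pair in Mb; left, ETS1-Low; right, ETS1-High. DLX6, DLX6-AS1 and DLX5 (red) lie between -2.20 and -3.21 in ETS1-High, below the flanking genes SEM1 and SDHAF3, while PPP1R9A at -5.19 and BHLHA15 at 4.72, a gene with under 0.3 CPM in every group, are the extremes.

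MSX1 and MSX2, homeobox repressors that act downstream of BMP signals in crest, teeth and bone, did not move together. MSX1 (chr4:4859665-4863936, plus strand) was at 22.5, 23.8 and 23.5 CPM in RFP, 18.9, 17.8 and 17.6 in ETS1-Low and 15.0, 16.6 and 15.2 in ETS1-High. The groups were ordered downward without overlap, but the steps were small. MSX1 fell by 0.57 ± 0.05 on the log2 scale in ETS1-High (edgeR adjusted p = 1.77e-13) and by 0.36 ± 0.05 in ETS1-Low (edgeR adjusted p = 4.66e-08) against RFP.

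MSX2 (chr5:174724582-174730896, plus strand) was at 4.51, 4.44 and 4.45 CPM in RFP, 2.56, 2.91 and 2.10 in ETS1-Low and 7.67, 8.83 and 7.82 in ETS1-High. ETS1-Low was thus below the control and ETS1-High above it, with no shared values. The log2 fold changes against RFP were -0.82 ± 0.11 (edgeR adjusted p = 9.53e-09) and 0.86 ± 0.1 (edgeR adjusted p = 2.51e-11). ETS1-High exceeded ETS1-Low 3.2-fold (log2 1.68 ± 0.11, edgeR adjusted p = 3e-19). Called changes in opposite directions against RFP were found in 6.41% of all tested genes and in MSX2 alone of the 10 members. On the FPKM scale MSX1 exceeded MSX2 by 5.97 ± 0.0236 times in RFP, 8.33 ± 1.38 times in ETS1-Low and 2.06 ± 0.0313 times in ETS1-High. These ratios did not overlap between groups, with p = 0.1 in the exact permutation test for each pair.

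FOXD3, a forkhead repressor that keeps crest cells multipotent and holds back pigment cell fate, fell in 2 steps of similar size. Its level was 24.2, 25.1 and 24.0 CPM in RFP, 11.9, 12.2 and 12 in ETS1-Low and 6.14, 7.12 and 6.18 in ETS1-High. Every ETS1-High library lay below every ETS1-Low library, and these lay below the control. The log2 fold change was -1.02 ± 0.06 (edgeR adjusted p = 5.82e-21) in ETS1-Low and -1.91 ± 0.07 (edgeR adjusted p = 7.03e-31) in ETS1-High against RFP, the latter being 3.76-fold lower. FOXD3 is a gene of 1 exon at chr1:63322567-63325128 on the plus strand. The antisense RNA FOXD3-AS1, which overlaps that exon, fell as well, with log2 fold changes of -0.99 and -1.70 and levels of 4.78, 2.39 and 1.46 CPM in the 3 groups. The same limit on strand applies to this pair. Of the 22 other tested genes that start within 2 Mb, none fell as far as FOXD3 in either comparison with RFP, and their medians were -0.05 (ETS1-High) and 0.39 (ETS1-Low).

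TFAP2A and TFAP2B, AP-2 factors that open crest and sympathetic gene programmes and bind as dimers, were both higher in the ETS1 groups but peaked in different ones. TFAP2A (chr6:10393186-10419659, minus strand) was at 15.5, 13.7 and 14.7 CPM in RFP, 57.1, 55.2 and 57.1 in ETS1-Low and 77.0, 81.3 and 80.3 in ETS1-High. All ETS1 libraries stood more than 3-fold above the control, and the 2 ETS1 groups were apart from each other. The log2 fold change was 2.44 ± 0.04 (edgeR adjusted p = 9.49e-44) in ETS1-High, a 5.43-fold rise, and 1.95 ± 0.04 (edgeR adjusted p = 1.01e-38) in ETS1-Low. None of the 17 other tested genes that start within 2 Mb changed as much in ETS1-High, and their median was -0.03.

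A pair of antisense RNAs overlap TFAP2A exons, and they went in opposite directions. TFAP2A-AS1 rose from 0.473 ± 0.0917 CPM in RFP to 1.72 ± 0.0996 in ETS1-High (log2 fold change 1.86). TFAP2A-AS2 fell from 1.09 ± 0.297 to 0.501 ± 0.0601 (log2 fold change -1.11). Both had few reads, 18 to 82 counts per library for TFAP2A-AS1 and 15 to 67 for TFAP2A-AS2. The limit on strand given for DLX6-AS1 applies here too, so TFAP2A reads in the shared exons cannot be told apart from theirs.

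TFAP2B (chr6:50818723-50847619, plus strand) was at 3.14, 2.67 and 2.89 CPM in RFP, 13.2, 12.8 and 13.1 in ETS1-Low and 5.51, 4.8 and 4.95 in ETS1-High. The ETS1-Low libraries were the highest, and ETS1-High lay between them and the control. TFAP2B was 4.5-fold higher in ETS1-Low than in RFP (log2 2.17 ± 0.09, edgeR adjusted p = 1.25e-27), and 0.81 ± 0.1 higher on the log2 scale in ETS1-High (edgeR adjusted p = 2.93e-10). From ETS1-Low to ETS1-High it fell by 1.36 ± 0.08 (edgeR adjusted p = 4.09e-20). The FPKM ratio of TFAP2A to TFAP2B was 7.52 ± 1.94 in RFP and 6.63 ± 0.236 in ETS1-Low, which overlapped (exact permutation p = 0.7). In ETS1-High the ratio was 20.0 ± 3.1, above both (exact permutation p = 0.1 for each). The TFAP2B length implied by its counts and FPKM ran from 3.07 to 4.82 kb over the RFP libraries, a spread that the ratio carries. In the count fit, TFAP2B rose by 2.17 and TFAP2A by 1.95 on the log2 scale in ETS1-Low, so the overlap does not show an unchanged balance.

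PAX3 and PAX7, paired-box factors of the neural crest border and of muscle progenitors, were higher in both ETS1 groups, on very different levels. PAX3 (chr2:222199887-222298998, minus strand) was at 50.4, 52.6 and 51.9 CPM in RFP, 60.1, 59.0 and 59.7 in ETS1-Low and 105, 112 and 113 in ETS1-High. Most of its rise came with the second step. The log2 fold change against RFP was 1.09 ± 0.03 (edgeR adjusted p = 8.95e-33) in ETS1-High and 0.21 ± 0.04 (edgeR adjusted p = 8.92e-07) in ETS1-Low. The small ETS1-Low difference was lost on the FPKM scale, where it was 0.065 to 0.068 with adjusted p of 0.121 to 0.144 in limma. That scale places the median gene 0.14 lower than the count fit does in ETS1-Low against RFP, and 0.11 lower in ETS1-High against RFP.

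PAX7 (chr1:18630846-18748866, plus strand) was at 1.35, 1.36 and 1.64 CPM in RFP, 4.18, 4.42 and 4.47 in ETS1-Low and 5.25, 4.76 and 5.04 in ETS1-High. Most of its rise was already present in ETS1-Low. The log2 fold change was 1.58 ± 0.13 (edgeR adjusted p = 4.14e-16) in ETS1-Low and 1.78 ± 0.12 (edgeR adjusted p = 2.41e-18) in ETS1-High, the latter 3.45-fold. Between the ETS1 groups the difference was 0.20 ± 0.11 and was not called (edgeR adjusted p = 0.104), although the libraries did not overlap in CPM. In FPKM they did overlap, at 1.02 to 1.1 in ETS1-Low and 1.05 to 1.19 in ETS1-High. With 64 to 225 counts per library PAX7 had the fewest reads of the 10 genes. PAX3 exceeded PAX7 by 61.0 ± 16 times in RFP on the FPKM scale, 22.2 ± 0.925 times in ETS1-Low and 39.1 ± 3.08 times in ETS1-High. These ratios did not overlap (exact permutation p = 0.1 for each pair). The RFP ratio is imprecise, since PAX7 was at only 0.29 to 0.45 FPKM there. Its length implied by counts and FPKM ran from 3.53 to 5.02 kb over those libraries.

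MEIS1, a TALE homeobox factor that binds DNA together with PBX and HOX proteins, had the highest count level of the 10 genes in RFP and the smallest change in ETS1-High. It was at 124 CPM in each RFP library, 101, 102 and 96.8 in ETS1-Low and 110, 106 and 112 in ETS1-High. Both ETS1 groups lay below the control, ETS1-Low the further. The log2 fold change was -0.32 ± 0.03 (edgeR adjusted p = 6.14e-13) in ETS1-Low and -0.19 ± 0.03 (edgeR adjusted p = 6.26e-07) in ETS1-High. MEIS1 lies at chr2:66433452-66573869 on the plus strand. Its antisense neighbours MEIS1-AS2 and MEIS1-AS3 were too low to be tested.

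Per length, the order of the 10 genes changed between groups. DLX5 led in RFP at 77.7 ± 0.878 FPKM, followed by MEIS1 at 45.7 ± 0.61 and PAX3 at 22.3 ± 0.785. MSX1, FOXD3 and DLX6 came next at 14.2, 13.5 and 13.3 FPKM, and neighbours in that run overlapped. TFAP2A followed at 5.99 ± 0.295 FPKM, then MSX2, TFAP2B and PAX7. In ETS1-Low the same 3 genes led and TFAP2A moved up to the fourth place at 20.7 ± 0.378 FPKM, and the lowest pair, MSX2 and PAX7, overlapped.

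In ETS1-High, PAX3 led at 43.9 ± 1.22 FPKM, ahead of MEIS1 at 38.3 ± 1.77 and TFAP2A at 28.8 ± 0.829. DLX5 came after these at 15.9 ± 0.868 FPKM, and DLX6 and TFAP2B overlapped near the bottom. Summed over the 10 genes, the level was 196.4 FPKM in RFP, 154.0 in ETS1-Low and 147.7 in ETS1-High. The fall belongs to the FPKM scale and need not hold in CPM. FPKM gives short transcripts more weight, and DLX5 had the shortest implied length of the 10 genes, 1.19 kb in RFP. That scale also places the median gene 0.14 lower than the count fit in ETS1-Low against RFP, and 0.11 lower in ETS1-High. DLX5 made up 39.6%, 30.8% and 10.8% of these sums, PAX3 11.4%, 15.2% and 29.7%, and TFAP2A 3.05%, 13.4% and 19.5%. MEIS1 kept a similar share, at 23.3%, 22.4% and 25.9%.

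**Figure D4:**
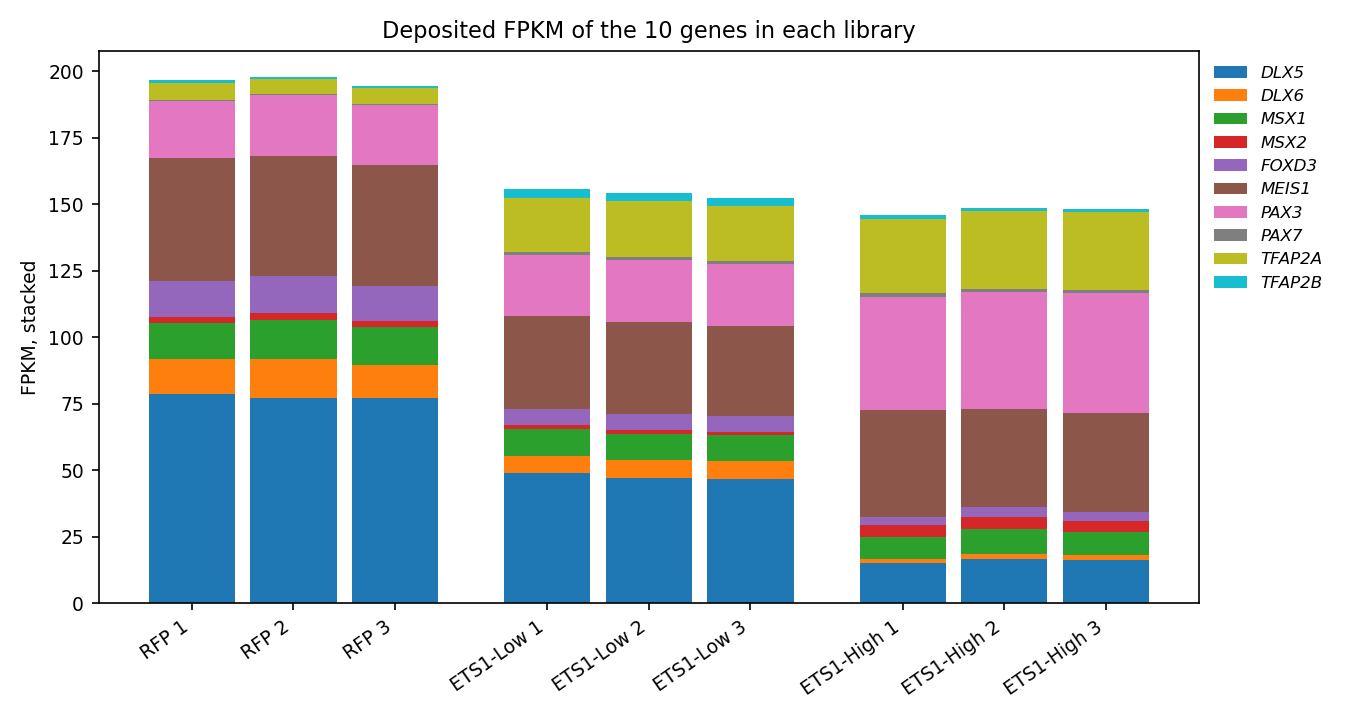
Deposited FPKM of the 10 genes stacked for each of the 9 libraries, on a linear axis from 0. The total is near 196.4 in RFP and 147.7 in ETS1-High; the DLX5 and DLX6 layers shrink and the PAX3 and TFAP2A layers widen across the groups.

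The genes whose profile over the 9 libraries was closest to each member were found by the root mean square difference of centred log2 CPM, among 13703 genes with a mean of at least 1 CPM. MSX1 was closest to VIM, the mesenchymal filament gene vimentin (difference 0.037), and MEIS1 to WDR55 (0.013). TFAP2A was closest to KANK1 (0.062) and to PPP1R1A (0.074), the latter one of the 10 Ewing sarcoma markers. FOXD3 was closest to UPP1 (0.058), and PAX3 to the transcript RP11-262H14.1 (0.051) and to IRS1 (0.055), an adaptor of the insulin receptor. DLX5 was closest to SEMA3F (0.073), a semaphorin, and PAX7 to UBE2L6 (0.087) and MAPT (0.09). TFAP2B, which peaks in ETS1-Low, was nearest to GSTM4 (0.108) and TP73 (0.122). MSX2 and DLX6 had no gene as near, the closest being MMP2 (0.149) for MSX2 and CDK18 (0.168) for DLX6. The profiles share their libraries and rest on 3 groups, so likeness describes a pattern over 3 levels.

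Relatives of the members were looked up in lists of their families. Of the 7 other paired-box genes, 4 were tested, and 3 rose and 1 fell in each ETS1 group against RFP. Their median log2 fold change was 1.39 for ETS1-High and 1.10 for ETS1-Low, beside -0.01 and 0.01 over all genes. Calls higher and lower were made for 37.0% and 37.2% of all tested genes in ETS1-High, and for 37.9% and 36.2% in ETS1-Low. PAX6, an eye and neural factor, rose from 5.79 ± 0.497 CPM in RFP to 14.9 ± 1.15 in ETS1-Low and 22.3 ± 1.05 in ETS1-High. PAX8 and PAX9 rose in both groups too (log2 1.80 and 0.97 in ETS1-High), and PAX5 fell (-0.44).

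Among 12 tested distal-less and MSX-like relatives, 7 rose and 4 fell in ETS1-High, beside 37.0% and 37.2% of all tested genes. In ETS1-Low 8 rose and 3 fell, beside 37.9% and 36.2%. The medians of the list were 0.50 and 0.60. DLX2, which patterns the upper jaw, rose where DLX5 and DLX6 fell, from 60.9 ± 0.716 CPM in RFP to 120 ± 2.88 in ETS1-Low and 89.4 ± 3.22 in ETS1-High. HAND2, a jaw and sympathetic factor that acts after DLX5 and DLX6 in the embryo, rose from 41.0 ± 1.17 to 110 ± 3.07 and 211 ± 2.03 CPM. BARX2 rose by 2.19 and PRRX2 by 2.43 on the log2 scale in ETS1-High. PRRX1, a mesenchymal factor, fell from 3.375 ± 0.279 CPM to 0.0332 ± 0.0171 in ETS1-Low and 0.195 ± 0.0361 in ETS1-High.

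The list of genes that DLX and MSX factors act on in bone had 6 tested members of 11. In ETS1-High 1 was higher and 3 were lower, beside 37.0% and 37.2% of all tested genes. In ETS1-Low 1 was higher and 5 were lower, beside 37.9% and 36.2%. RUNX2, the master factor of bone formation, fell from 14.4 ± 0.332 CPM in RFP to 9.25 ± 0.481 in ETS1-Low and 5.07 ± 0.327 in ETS1-High. BMP2, a growth factor that induces bone, stood at 7.58 ± 0.486 CPM in RFP, at 0.242 ± 0.0829 in ETS1-Low and at 4.18 ± 0.64 in ETS1-High. Like MSX2 it was lowest in ETS1-Low, but unlike MSX2 it did not exceed the control in ETS1-High. COL1A1, a chain of the main bone collagen, fell in ETS1-Low (-0.47) and rose in ETS1-High (0.37), the latter not called on the FPKM scale (0.13). In each group 5 of the 11 listed genes averaged under 0.1 CPM, COL1A2 among them.

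Of the 7 tested relatives and partners of the AP-2 factors, 4 fell and 1 rose in ETS1-High, beside 37.2% and 37.0% of all tested genes. In ETS1-Low 3 fell, beside 36.2%. KCTD15, which inhibits AP-2 factors, fell from 16.3 ± 0.896 CPM in RFP to 12.9 ± 0.203 in ETS1-Low and 4.26 ± 0.289 in ETS1-High. CITED2, a coactivator of AP-2, was abundant at 555 ± 3.35, 403 ± 1.49 and 498 ± 17.4 CPM. TFAP2C rose in ETS1-High from 0.132 ± 0.102 to 0.957 ± 0.101 CPM. Among the 4 tested forkhead D relatives, FOXD1 fell as FOXD3 did, from 9.95 ± 0.17 to 4.64 ± 0.246 and 3.77 ± 0.18 CPM, while FOXD2 rose in ETS1-Low (log2 fold change 0.92). Its smaller rise in ETS1-High (0.47) was not called without RFP replicate 1 (0.37), without ETS1-High replicate 2 (0.34) or on the FPKM scale.

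Of the 12 TALE homeobox partners of MEIS1, 6 were higher and 5 lower in ETS1-High, beside 37.0% and 37.2% of all tested genes. On the FPKM scale these counts were 5 and 5. In ETS1-Low 5 were higher and 6 lower in the count fit, beside 37.9% and 36.2%. All called changes of at least 2-fold were downward, 4 in ETS1-High, beside 11.4% of all tested genes, and 3 in ETS1-Low, beside 12.2%. PKNOX1 rose in both groups (0.34 and 0.72), and MEIS3 fell in both (-1.31 and -1.97). PKNOX2 was at 0.897 ± 0.0783 CPM in RFP and had 0 counts in all ETS1-Low libraries, so its level there was at least 11.3-fold lower, using a floor of 3 counts per library.

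Other neural crest specifiers did not move in one direction. Of 30 listed, 23 were tested, and 10 were higher and 12 lower in ETS1-High, beside 37.0% and 37.2% of all tested genes. In ETS1-Low 9 were higher and 11 lower, beside 37.9% and 36.2%. The medians of the list were -0.30 and -0.09. ID3, a BMP-responsive inhibitor of differentiation, rose from 28.6 ± 1.53 CPM in RFP to 131 ± 0.969 in ETS1-Low and 194 ± 9.97 in ETS1-High. SOX5 rose from 0.487 ± 0.0628 CPM to 3.54 ± 0.427 and 6.20 ± 0.463. CDH6, a cadherin of premigratory crest, fell from 2.77 ± 0.41 CPM to 0.025 ± 0.0266 and 0.314 ± 0.101. CDH11, a cadherin of migrating crest, was at 150 ± 2.53, 142 ± 2.28 and 288 ± 7.1 CPM.

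Of the genes that act with or after PAX3 and PAX7 in muscle, more fell than rose against RFP in both ETS1 groups. Of 29 myogenic regulators, 16 were tested, and 6 rose and 9 fell in ETS1-High, while 5 rose and 11 fell in ETS1-Low, with medians of -0.32 and -0.78, where 37.0% and 37.2% of all tested genes rose and fell in ETS1-High and 37.9% and 36.2% in ETS1-Low. Among changes of at least 2-fold, 2 rose and 5 fell in ETS1-High, beside 9.64% and 11.4% of all genes. None rose and 8 fell that far in ETS1-Low, beside 8.47% and 12.2%. From ETS1-Low to ETS1-High the median was 0.30 and the balance was the other way. In that comparison 9 of the regulators were higher and 3 lower, beside 29.9% and 29.3% of all genes. Their summed level was 520 to 542 CPM in RFP, 290 to 299 in ETS1-Low and 270 to 282 in ETS1-High. NCAM1, a cell adhesion protein of myoblasts and neurons, accounted for much of this, at 225 ± 7.46, 47 ± 1.98 and 2.81 ± 0.254 CPM. MEF2C fell from 3.46 ± 0.357 CPM to 0.134 ± 0.0784 and 0.181 ± 0.0714, and PITX1, a hindlimb factor, rose from 23.3 ± 0.71 to 40.9 ± 0.985 and 50.7 ± 2.64. MYOG, which drives terminal muscle differentiation, had 11 to 18 counts in each RFP library and 0 in every ETS1 library, so it was at least 3.67-fold lower in ETS1-Low and at least 3.83-fold lower in ETS1-High. MYF5 and MYF6 had 0 counts throughout, and MYOD1 averaged 0.0139 CPM in RFP and 0 in both ETS1 groups.

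**Figure D5:**
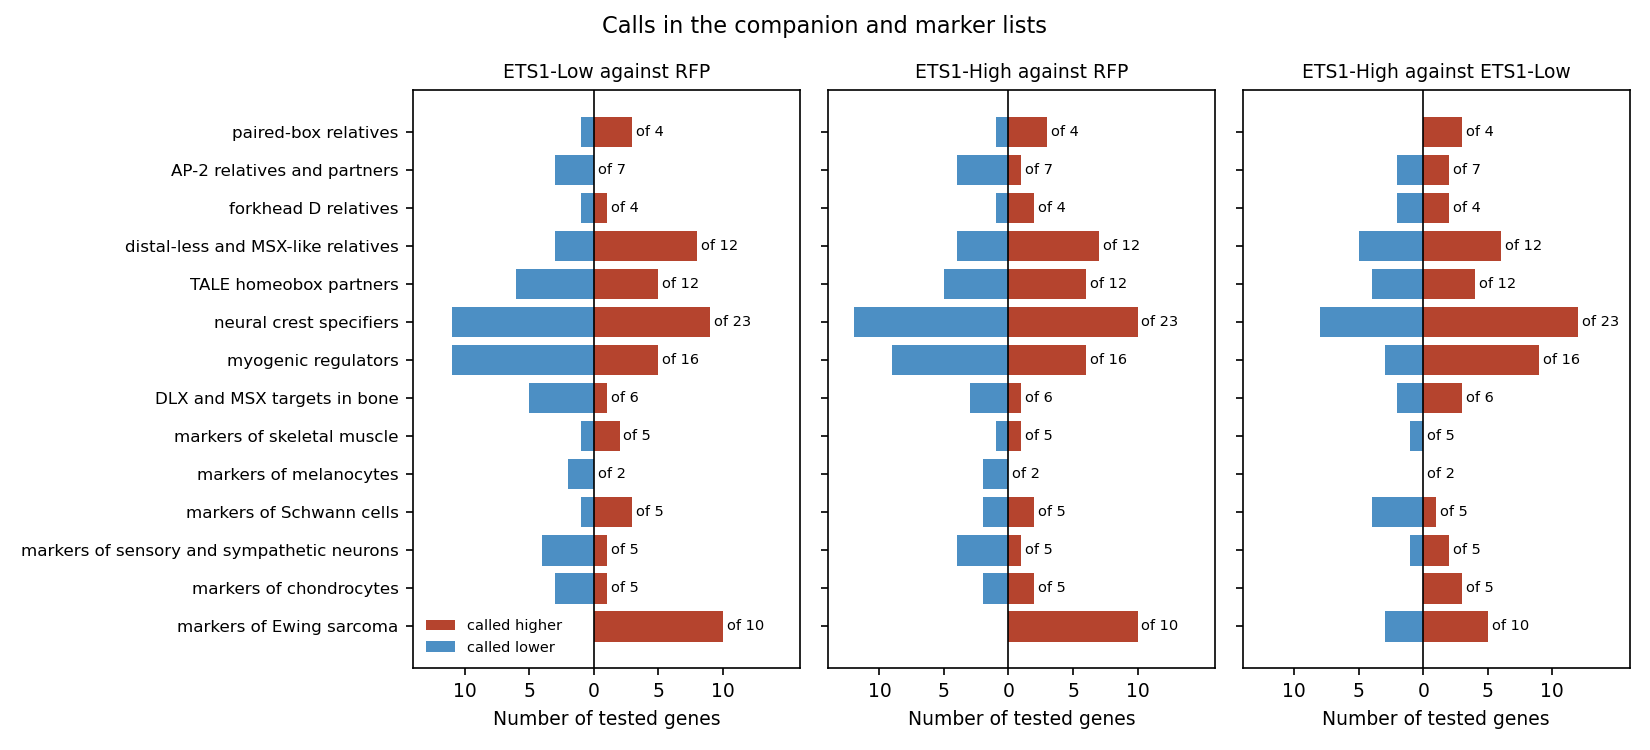
Number of tested genes called higher (red, to the right of 0) and lower (blue, to the left of 0) in each list, for the 3 comparisons; the number after each bar is the number tested. All 10 Ewing sarcoma markers are called higher in both comparisons with RFP, while the neural crest list splits 10 to 12 and the myogenic list 6 to 9 in ETS1-High. In ETS1-High against RFP, 37.0% and 37.2% of all tested genes are called higher and lower.

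Markers of differentiated cell types that a crest or mesodermal programme could show were mostly low, and their part in the changes above was not tested. Of 15 skeletal muscle markers 5 were tested, and the sum of the list was 44.3 to 46.6 CPM in RFP, 59.1 to 64.3 in ETS1-Low and 49.8 to 51.6 in ETS1-High, most of it TNNT1, a slow troponin gene, at 41.7 ± 1.36, 58.5 ± 2.68 and 47.2 ± 1.02 CPM. Melanocyte markers summed to at most 3.42 CPM in any library, and TYR, TYRP1 and MLANA had 0 counts. Schwann cell markers other than FOXD3 summed to 10.8 to 11.7 CPM in RFP, 14.9 to 15.4 in ETS1-Low and 10.6 to 12.9 in ETS1-High, with SOX10 at 0 in every library. Of 5 tested, 2 were called higher and 2 lower in ETS1-High, beside 37.0% and 37.2% of all tested genes. In ETS1-Low 3 of these markers were called higher and 1 lower, beside 37.9% and 36.2%. PMP22, a myelin protein gene and the most abundant of them in RFP, fell from 8.87 ± 0.463 CPM to 4.29 ± 0.0841 and 5.79 ± 0.631. EGR2, a factor of myelinating glia and of growth factor response, rose from 0.924 ± 0.0842 CPM to 7.08 ± 0.425 and 4.21 ± 0.736, an order of groups like that of TFAP2B. Neuronal markers summed to 54.9 to 59.8 CPM in RFP, 35.6 to 39.1 in ETS1-Low and 33.2 to 35 in ETS1-High. Of the 5 tested, ISL1, a sensory and motor neuron factor, rose from 0.0345 ± 0.0433 CPM to 4.93 ± 0.297 and 8.70 ± 0.192, and the other 4, among them POU4F1, fell in both groups. Chondrocyte markers summed to 21.1 to 22.9, 13.1 to 13.8 and 17.7 to 18.6 CPM in the 3 groups. Of 5 tested chondrocyte markers, 2 were called higher and 2 lower in ETS1-High, and 1 higher and 3 lower in ETS1-Low. The shares of all tested genes given for the Schwann cell markers apply here too. SOX9, which specifies crest and cartilage, fell from 15.9 ± 0.532 CPM in RFP to 6.64 ± 0.301 and 9.56 ± 0.554. MATN3 fell too, from 0.681 ± 0.0648 CPM to 0.0332 ± 0.0371 and 0.0987 ± 0.0531, with at most 7 counts in any ETS1 library. COL11A2, a cartilage collagen, was at 3.86 ± 0.228, 4.18 ± 0.124 and 5.71 ± 0.184 CPM. SNORC was at 1.30 ± 0.309, 2.41 ± 0.203 and 2.46 ± 0.383. On the FPKM scale, the higher calls of COL11A2 in ETS1-High and of SNORC in ETS1-Low were lost.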

How the data were processed

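RNA from 9 TC-32 libraries in 3 groups of 3, taken from the sample titles, was sequenced from stranded mRNA libraries. The authors deposited RSEM expected counts per gene and RSEM FPKM values, per the file headers. The submitters' processing notes name GRCh38, cutadapt 4.4, STAR 2.7.3, featureCounts from Subread 2.0.3 and limma 3.38.3, without saying which step made which table, and the annotation and the use of strand are not given in the sources used here. Between 9.00% and 10.3% of the expected counts per library were not whole, since RSEM divides shared reads.

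From there, expected counts were rounded, filtered with filterByExpr by group and fitted in edgeR 4.0.16 (R 4.3.3) with TMM factors and 1 quasi-likelihood model over all 9 libraries. Benjamini-Hochberg adjustment ran over all 17235 genes tested, and calls were made at an adjusted p under 0.05. The pipeline was tested on simulated data. Expected counts per library ran from 39484704 to 46654734, and 26816 genes were at 0 in every library. Floors of 3 counts cover counting error only. Ratios of FPKM were compared by two-sided exact permutation tests over libraries. Alternatives were limma 3.58.1 on log2 FPKM, DESeq2 1.42.0, other scalings and filters, a replicate block, and leaving out each library.

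The 10 members and all gene lists were chosen with earlier results of these data known. Named genes are the members, ETS1, antisense transcripts, the 4 highest tested genes of each list and up to 3 with the largest change of at least 2-fold in ETS1-High, and the nearest profiles. Counts and medians describe lists, with no set test. Gene positions are those of GENCODE v44, and promoters those of RefSeq. The antisense RNAs were matched by gene ID, since the deposited tables give some of them clone names. Some genes that the rule names are not reported here.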

Additional observations from a re-analysis of the deposited data

Results flagged for a closer look

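For 9 of the 10 genes the change against RFP differed between the ETS1 groups, by edgeR's test of ETS1-High against ETS1-Low, a difference that 59.2% of all tested genes also showed. The log2 difference was 1.68 for MSX2, 0.88 for PAX3, 0.50 for TFAP2A and 0.13 for MEIS1, all higher in ETS1-High. It was -1.90 for DLX6, -1.62 for DLX5, -1.36 for TFAP2B, -0.89 for FOXD3 and -0.21 for MSX1, all lower in ETS1-High. MSX2 was the member whose changes against RFP had opposite signs, -0.82 in ETS1-Low and 0.86 in ETS1-High. TFAP2B changed by 2.17 in ETS1-Low and 0.81 in ETS1-High, a smaller change beside more ETS1. The ETS1 difference itself was 0.85 between these groups.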

How the results depend on the processing

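The counts of members called, 10, 10 and 9 in ETS1-High against RFP, ETS1-Low against RFP and ETS1-High against ETS1-Low, were the same when any 1 library was left out (10 to 10, 10 to 10 and 9 to 9), and under DESeq2, limma-voom, other scalings and filters. Requiring a change of at least 2-fold lowered them to 6, 4 and 4. On log2 FPKM, PAX3 in ETS1-Low was not called, leaving 9. The replicate block also gave 10, 10 and 9. Over all tested genes, same-numbered libraries did not deviate together (correlations from -0.06 to 0.061). This cannot exclude a shared step that touched few genes.

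Of 600 results for single members under an alternative, 597 kept direction and call, 3 lost the call (PAX3, above) and 0 reversed. A pseudocount of 1 on FPKM shrank low genes: in ETS1-High against RFP, PAX7 went from 1.78 to 0.62 and ETS1 from 3.26 to 1.97 on the log2 scale, and TFAP2B from 0.81 to 0.43. For other named genes, 4222 results were kept, 117 lost and 7 gained a call. The 9 reversals were all on the FPKM scale: PBX2 at -0.033 (count fit 0.08) for ETS1-High and at -0.112 to -0.114 (count fit 0.03) for ETS1-Low, and TNNT1 at -0.042 to -0.043 (count fit 0.18) for ETS1-High, each against RFP. The cause was not tested. Depth limits statements on genes with few reads, such as MYOG and PKNOX2.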

Other observations

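Around the other members, the tested genes that start within 2 Mb had these median log2 fold changes in ETS1-High against RFP, where the median absolute change of all tested genes was 0.40: 0.34 over 12 genes around PAX3, 0.01 over 41 around PAX7, -0.37 over 11 around TFAP2B, 0.15 over 30 around MSX1, -0.38 over 26 around MSX2 and 0.22 over 18 around MEIS1. Around PAX3, 8 of 12 were called higher and 1 lower, around TFAP2B 1 of 11 higher and 8 lower, and around MSX2 5 of 26 higher and 17 lower, beside 37.0% and 37.2% of all tested genes. Of the 12 genes around PAX3, 3 rose at least as far as PAX3 did. None of the 11 around TFAP2B rose as far as it did in either comparison with RFP. For MEIS1, 14 of the 18 neighbours had a log2 fold change of at least its size in ETS1-High against RFP.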
